A study of Rattus norvegicus with 12 samples.

Results

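The interleukin 6 family and its signalling genes were followed in whole lungs of 12 male, age-matched Sprague-Dawley rats, with 3 Affymetrix rat genome arrays in each of 4 groups. The 8 genes were chosen by name, the ligands Il6, Lif and Osm, the receptor chains Il6r, Il6st and Osmr, the transcription factor Stat3 and the feedback inhibitor Socs3. Every probe set whose symbol in the platform annotation was 1 of these 8 genes was taken, which gave 11 of 31099 probe sets for 7 of the 8 genes, of 14217 genes named by a probe set with a single symbol. Osmr was not analysed here, since the annotation gave its symbol to 0 probe sets. Il6, Lif, Osm, Il6r and Socs3 had 1 probe set each, Stat3 had 2 and Il6st had 4, numbered here by brightness. Of these, 10 probe sets of 6 genes were among the 16536 that reached a log2 value of 4 in at least 3 of the 12 arrays and were tested, and the Lif probe set was not.

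The groups differed in surgery and in drug. CHF ketotifen rats had a clip placed on the supracoronary aorta as juveniles, which leads to congestive heart failure (CHF) with a preserved ejection fraction and pulmonary hypertension secondary to it, and drank ketotifen at 1 mg per kg per day from day 1 after surgery. CHF placebo rats had the same banding without the drug, and the series' design text calls such rats untreated. Sham ketotifen and sham placebo rats were operated on without the clip, with and without the drug. Ketotifen is a mast cell stabilizer. All lungs were taken 9 weeks after surgery, and no pooling of animals was described in the labels.

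Interleukin 6 family cytokines act through receptor complexes that share the chain gp130, encoded by Il6st. Interleukin 6 first binds its own receptor chain, encoded by Il6r, and oncostatin M, encoded by Osm, and leukaemia inhibitory factor, encoded by Lif, use gp130 together with other chains. Bound gp130 activates Janus kinases that phosphorylate STAT3, which switches on target genes including Socs3, whose protein binds gp130 and damps the signal. In the lung, interleukin 6 is known for its part in inflammation and in remodelling of pulmonary vessels.

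Values were the deposited log2 expression values made with GCRMA, which flatten near background at about 2 to 4, so a difference from a group in that range has an uncertain size. On single arrays 15809 to 16056 probe sets lay at or above 4, and the number of arrays limits the precision. The 6 alveolar type 2 marker genes, for surfactant proteins and related products, had a summed signal between 16.43 and 17.23 on the log2 scale in all 12 arrays, so that lung markers were present in each. Some arrays stood apart from others. CHF ketotifen 1 and 3 were the closest pair of arrays, with a correlation of 0.993 over all kept probe sets. The SD of their differences was 0.258, against 0.397 for the next pair, sham placebo 1 and sham ketotifen 3. Sham placebo 1 was further from sham placebo 2 and 3 of its own group (SD 0.803 and 0.575). CHF placebo 1 was closer to CHF ketotifen 1 and 3 (SD 0.490 and 0.491) than to CHF placebo 2 and 3 (0.553 and 0.694). Its SD from CHF ketotifen 2 was 0.577. The beta-actin 3' signal exceeded the 5' signal by 3.90 to 4.52 on the log2 scale in sham placebo 2 and 3 and sham ketotifen 2, and by 2.90 to 3.45 in the other arrays. The summed signal of 7 measured cardiomyocyte genes was 9.90 and 12.76 in sham ketotifen 1 and 2 and 12.01 in sham placebo 3, and 5.64 to 6.09 in the other arrays. The labels do not say whether arrays were run in batches, and the p-values measure the spread between single rats.

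Il6 was high in the lungs of banded rats with ketotifen and at background in sham lungs. Its upstream sequence is shown because several of the other genes described here encode regulators of Il6 transcription. In the RefSeq annotation of the rat assembly GRCr8, Il6 lies on chromosome 4 from 5889999 to 5894575, on the minus strand. The 250 bases before its annotated start are chr4:5894576-5894825, printed 5′ to 3′ on the strand of the gene.
Il6 upstream: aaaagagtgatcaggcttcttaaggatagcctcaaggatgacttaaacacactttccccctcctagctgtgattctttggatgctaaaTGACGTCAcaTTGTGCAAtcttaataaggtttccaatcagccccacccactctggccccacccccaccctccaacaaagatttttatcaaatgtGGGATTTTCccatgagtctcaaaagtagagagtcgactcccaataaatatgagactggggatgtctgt
The capitals mark, from left to right, a cyclic AMP response element (TGACGTCA) whose first base lies 162 bases before the start, a C/EBP motif (TTGNGCAA) at 152 bases and a kappaB motif (GGGANTTTC) at 68 bases. Both strands were searched, and none of these 3 motifs overlapped another. Of 27457 upstream windows of the same length in the RefSeq table, 1.7% held the first motif, 2.41% the second and 0.958% the third. The STAT motif TTCNNNGAA, present in 7.52% of all windows, and the AP-1 motif TGANTCA, present in 6.36%, had 0 matches in these letters. CCAAT boxes, present in 34.3% of windows, matched at 130 and 29 bases before the start. These matches describe letters only, and the arrays did not measure binding. The windows of the other members are not printed, because they did not lie at the outer annotated start of their gene or were not in the table.

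The Il6 probe set read 11.23, 11.21 and 10.58 in the CHF ketotifen lungs, against 5.73, 2.52 and 2.49 in the CHF placebo lungs. It read 2.54, 2.53 and 2.51 in the sham ketotifen lungs, and 2.50, 2.56 and 2.48 in the sham placebo lungs. All 3 CHF ketotifen lungs were high, 1 CHF placebo lung was intermediate, and the other 8 lungs lay together at the background level. The mean was 11.00 ± 0.37 in CHF ketotifen lungs and 3.58 ± 1.86 in CHF placebo lungs (SD, n = 3 each). Il6 rose in CHF ketotifen over CHF placebo lungs by 7.42 ± 0.67 log2 units (SE), with a limma adjusted p of 0.0003. It rose over sham ketotifen lungs by 8.48 ± 0.67, with a limma adjusted p of 7.92e-05. These comparisons share the CHF ketotifen arrays. Il6 met the filter on the 3 CHF ketotifen arrays and CHF placebo 1, so it was tested only through the group where it was high. In both comparisons, and in the interaction, Il6 ranked 1 of 16536 by the size of the rise. In a bulk lung sample, more cells that make an RNA and more of that RNA per cell cannot be told apart.

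The drug's difference in banded rats exceeded that in sham rats by 7.41 ± 0.95 log2 units for Il6, with a limma adjusted p of 0.00763 for the interaction of surgery and drug. Of the 10 tested probe sets 1, that of Il6, was called higher in the interaction, where 0.254% of all kept probe sets were. This probe set would not have met the filter without the CHF ketotifen arrays. In sham lungs the difference between ketotifen and placebo was 0.01 ± 0.67, and the interval from -1.47 to 1.50 rests on 1 estimate of the spread for all groups. All sham lungs read at background for Il6, where the arrays do not resolve differences. In the absence of drug, CHF over sham lungs differed by 1.07 ± 0.67, with a limma adjusted p of 0.399.

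The CHF placebo 1 array decided that last value. Without it, the CHF placebo over sham placebo difference of Il6 was -0.0044, and the CHF ketotifen over CHF placebo difference was 8.50. This lung also had the highest summed macrophage signal of its group, 14.53 against 13.21 and 13.49 for CHF placebo 2 and 3, and the lowest endothelial signal, 13.32 against 14.03 and 14.16. Its neutrophil signal was the lowest of the group, 8.54 against 10.20 and 11.41. The part of these cells in its Il6 value was not tested. Without sham placebo 2 and 3 and sham ketotifen 2, the Il6 interaction was 7.40 but was not called, with a limma adjusted p of 0.256, while Il6 was still called in CHF ketotifen over CHF placebo (0.00826) and over sham ketotifen lungs (0.00518).

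**Figure D1:**
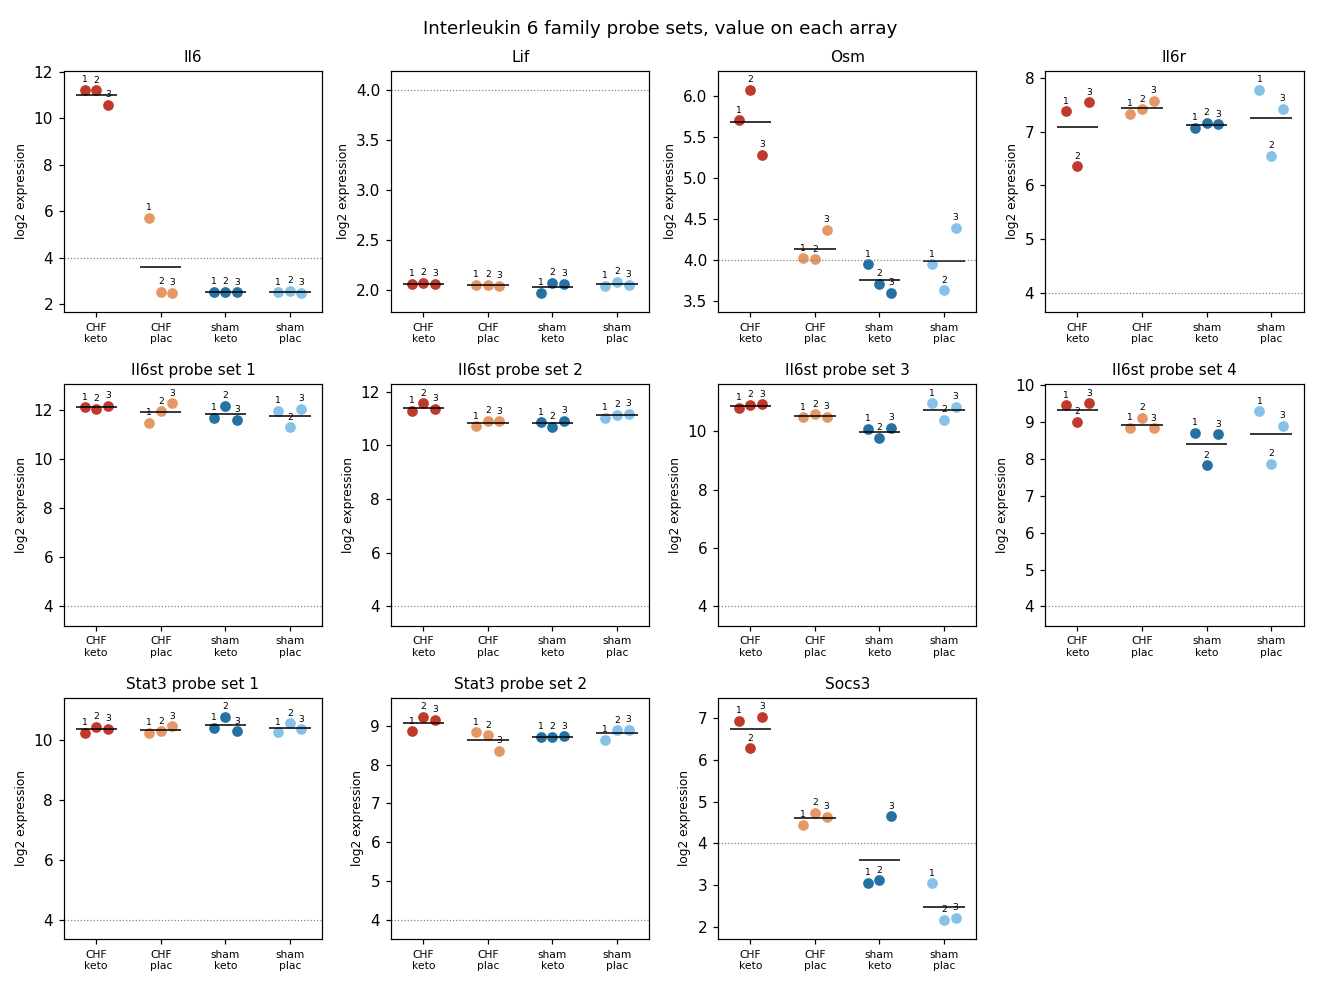
The 11 probe sets of the interleukin 6 family, 1 panel each, with the log2 expression value of each array on the vertical axis and the 4 groups on the horizontal axis (keto, ketotifen, plac, placebo). Points are single lungs numbered by replicate, bars are group means and the dotted line marks the filter value of 4. Il6, Osm and Socs3 lay above every other lung in the 3 CHF ketotifen lungs, while Il6r and the first Stat3 probe set overlapped between groups.

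Osm, the ligand oncostatin M, was higher in the CHF ketotifen lungs as well, at a lower level of signal. It read 5.70, 6.07 and 5.28 in the CHF ketotifen lungs, against 4.02, 4.01 and 4.37 in the CHF placebo lungs. The sham ketotifen lungs read 3.95, 3.71 and 3.60, and the sham placebo lungs 3.95, 3.63 and 4.39. The lowest CHF ketotifen lung was above every lung of the other groups, and those 3 groups lay between 3.60 and 4.39, close to background. The rise was 1.55 ± 0.25 log2 units over CHF placebo lungs (limma adjusted p = 0.0140) and 1.93 ± 0.25 over sham ketotifen lungs (limma adjusted p = 0.00218). The call over CHF placebo lungs was lost without CHF ketotifen 1 (limma adjusted p = 0.0563), CHF ketotifen 2 (0.0510) or CHF placebo 2 (0.0852), and in a fit of only these groups (0.0711). The call over sham ketotifen lungs was kept in 23 of 23 alternatives. The interaction of Osm was 1.79 ± 0.36, with a limma adjusted p of 0.0749, and was not called.

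Lif, the ligand leukaemia inhibitory factor, read at background in every lung. Its probe set read 2.06, 2.07 and 2.06 in the CHF ketotifen lungs, against 2.05, 2.05 and 2.04 in the CHF placebo lungs. Among sham lungs, those with ketotifen read 1.97, 2.07 and 2.06, and the sham placebo lungs 2.04, 2.08 and 2.05. At this level the array gives no measure of a difference. Among the other ligands and soluble partners of the family, 5 of 8 had a probe set, and Cntf and Ctf1 were tested, with 0 of 2 called in any of the 5 comparisons. Cntf encodes ciliary neurotrophic factor and Ctf1 cardiotrophin 1. Il11, Clcf1 and Ebi3 did not pass the filter on low values.

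Among the receptor chains, Il6r was called by limma in 0 of 5 comparisons, and in 0 of 5 it had an unadjusted p under 0.05. Il6r, the interleukin 6 binding chain, read 7.38, 6.36 and 7.55 in the CHF ketotifen lungs, against 7.33, 7.42 and 7.58 in the CHF placebo lungs. It read 7.07, 7.17 and 7.14 in the sham ketotifen lungs and 7.78, 6.55 and 7.43 in the sham placebo lungs. The groups overlapped, and the CHF ketotifen over CHF placebo difference was -0.35, with a 95% interval from -1.09 to 0.39 and a limma adjusted p of 0.633. That interval takes in falls and smaller rises, so changes of Il6r within it remain compatible with these values of 3 arrays per group. Without CHF ketotifen 2 this difference was 0.02.

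Il6st, the shared chain gp130, was measured by 4 probe sets, of which some were called and others were not. The second probe set read 11.29, 11.56 and 11.35 in the CHF ketotifen lungs, against 10.71, 10.92 and 10.89 in the CHF placebo lungs. In sham ketotifen lungs the values were 10.86, 10.68 and 10.90, and in sham placebo lungs 11.03, 11.14 and 11.16. All CHF ketotifen lungs lay above every other lung, and the sham ketotifen lungs lay below the sham placebo lungs. It rose by 0.56 ± 0.11 over CHF placebo lungs (limma adjusted p = 0.0420) and by 0.59 ± 0.11 over sham ketotifen lungs (limma adjusted p = 0.0117). The call over CHF placebo lungs was kept in 6 of 23 alternatives, and was lost on leaving out any 1 of 10 arrays (all but CHF placebo 1 and sham ketotifen 2), with limma adjusted p from 0.0503 to 0.140. The call over sham ketotifen lungs was kept in 22 of 23 and lost without sham placebo 2 and 3 and sham ketotifen 2 (limma adjusted p = 0.0535).

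The third Il6st probe set read 10.80, 10.92 and 10.93 in the CHF ketotifen lungs, against 10.48, 10.59 and 10.49 in the CHF placebo lungs. Sham ketotifen lungs read 10.08, 9.77 and 10.12, and the sham placebo lungs 10.96, 10.39 and 10.84. The sham ketotifen lungs were the lowest group and did not overlap with any other. The CHF ketotifen over sham ketotifen difference was a rise of 0.90 ± 0.15 (limma adjusted p = 0.00693), called in 23 of 23 alternatives. Over CHF placebo lungs it was 0.36 ± 0.15 (limma adjusted p = 0.255), with no overlap between the groups. In sham lungs the drug difference was -0.74 ± 0.15 (limma adjusted p = 0.108). The interactions of Il6st probe sets 2 and 3, 0.85 ± 0.16 and 1.11 ± 0.21, had limma adjusted p of 0.0600 and 0.0651 and were not called.

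The brightest Il6st probe set ranged from 11.29 to 12.26 over all lungs and the fourth from 7.82 to 9.50. Neither was called in any comparison. Their CHF ketotifen over CHF placebo differences were 0.20 ± 0.24 and 0.40 ± 0.34, and over sham ketotifen lungs 0.29 ± 0.24 and 0.92 ± 0.34 (limma adjusted p = 0.436 and 0.0937). All 4 Il6st probe sets had positive differences in both comparisons, of which 1 of 4 and 2 of 4 passed the test. Of the other receptors and sheddases on the list, 6 of 7 had a probe set and 3 were tested. These were Il11ra1, the interleukin 11 receptor chain, and Adam10 and Adam17, proteases that release receptor ectodomains, with 0 of 3 called in any comparison. Lifr, Cntfr and Il27ra did not pass the filter.

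Stat3, the transcription factor activated by gp130, was well above background in every lung. The first probe set read 10.25, 10.45 and 10.38 in the CHF ketotifen lungs, against 10.25, 10.30 and 10.46 in the CHF placebo lungs, and its range over the 6 sham lungs was 10.26 to 10.78. Its CHF ketotifen over CHF placebo difference was 0.02, with a 95% interval from -0.29 to 0.33. The second probe set read 8.86, 9.23 and 9.15 in the CHF ketotifen lungs, against 8.83, 8.75 and 8.35 in the CHF placebo lungs. Among sham lungs, those with ketotifen read 8.72, 8.72 and 8.73, and the sham placebo lungs 8.64, 8.88 and 8.90. The CHF ketotifen lungs lay above the CHF placebo and the sham ketotifen lungs and overlapped with the sham placebo lungs. Its differences of 0.44 ± 0.15 and 0.36 ± 0.15 had limma adjusted p of 0.183 and 0.140 and were not called. The arrays measure Stat3 RNA and not phosphorylated protein.

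Socs3, the STAT3-induced inhibitor of gp130, had the means 6.75 ± 0.41 in CHF ketotifen, 4.61 ± 0.15 in CHF placebo, 3.61 ± 0.90 in sham ketotifen and 2.48 ± 0.49 in sham placebo lungs (SD, n = 3 each). It read 6.94, 6.28 and 7.03 in the CHF ketotifen lungs, against 4.45, 4.74 and 4.64 in the CHF placebo lungs. In sham ketotifen lungs the values were 3.06, 3.12 and 4.65, and in sham placebo lungs 3.05, 2.17 and 2.22. The CHF ketotifen lungs were above all others, the CHF placebo lungs above the sham placebo lungs, and the CHF placebo and sham ketotifen lungs overlapped through sham ketotifen 3. The sham levels were near background, so the size of differences from them is uncertain. Socs3 rose by 2.14 ± 0.41 log2 units over CHF placebo lungs (limma adjusted p = 0.0344) and by 3.14 ± 0.41 over sham ketotifen lungs (limma adjusted p = 0.00223).

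The call of Socs3 over CHF placebo lungs was kept in 13 of 23 alternatives, with differences from 2.00 to 2.37, and that over sham ketotifen lungs in 23 of 23. Among the alternatives that ended it were leaving out CHF ketotifen 1 (limma adjusted p = 0.106), 2 (0.0513) or 3 (0.117), CHF placebo 2 or 3 (0.133 each), sham placebo 3 (0.0597) or sham placebo 2 and 3 with sham ketotifen 2 (0.0611), averaging CHF ketotifen 1 and 3 (0.113) and using no filter (0.0769). Without drug, CHF over sham lungs differed by 2.13 ± 0.41, close to the drug's difference within CHF rats, and had a limma adjusted p of 0.0725. That difference was called without sham ketotifen 3 (limma adjusted p = 0.0339) or sham placebo 1 (0.0117). The interaction of Socs3 was 1.01 ± 0.58, with a 95% interval from -0.28 to 2.29 and a limma adjusted p of 0.561.

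Counted over the family, 4 of 10 tested probe sets were called higher and 0 lower in CHF ketotifen over CHF placebo lungs, where 0.822% of all kept probe sets were called higher. In the same comparison the groups did not overlap for 6 of 10, all higher, and for 25.4% of all kept probe sets. In CHF ketotifen over sham ketotifen lungs 5 of 10 were called higher and 0 lower, against 6.36% called higher among all, and the groups did not overlap for 7 of 10, against 40.1%. Il6 is part of all these counts and would not have met the filter without the CHF ketotifen arrays. Il6, Osm and Socs3 had the large called differences, from 1.55 to 8.48, while the called Il6st probe sets differed by 0.56 to 0.90. The groups compared with for Il6, Osm and Socs3 were mostly at or close to background, so the size of those differences is uncertain. Lif, the remaining ligand among the members, read at background in every lung. Counts over all kept probe sets varied with single arrays. In either direction 201 (1.22%) were called in CHF ketotifen over CHF placebo lungs, 1219 without CHF placebo 1, 72 without CHF placebo 2 and 73 to 214 without any 1 of the others. Over sham ketotifen lungs the count was 2145 (13%), and 766 to 2773 on leaving out 1 array, lowest without CHF ketotifen 2. The interaction count was 61 (0.369%), and 303 without CHF placebo 1, 195 without sham placebo 1 and 21 to 48 without any 1 of the others.

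In CHF placebo over sham placebo lungs 0 of 10 were called by limma, with Socs3 and the second Il6st probe set at an unadjusted p under 0.05. Over all 16536 kept probe sets 0.169% were called, and 3326 had a p under 0.05 before adjustment, a share close to that of the family. Those calls numbered 28, and 1496 without sham placebo 1, 0 without sham placebo 2 and 3 to 35 without any 1 of the others. No overlap between groups was found for Socs3, which was higher, and for the second Il6st probe set, which was lower, against 23.4% of all probe sets. In sham ketotifen over sham placebo lungs 0 of 10 were called by limma. There the p of Socs3 and of Il6st probe sets 2 and 3 was under 0.05 before adjustment. Of all 16536 kept probe sets 0.0847% were called, and 2310 had a p under 0.05 before adjustment. These 14 calls became 722 without sham placebo 1, and were 4 to 22 without any 1 of the others. Groups without overlap were those of Socs3, higher, and of those 2 Il6st probe sets, lower, against 16.4% of all. Over all kept probe sets the median was between -0.04 and 0.02 in each of these 5 comparisons.

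**Figure D2:**
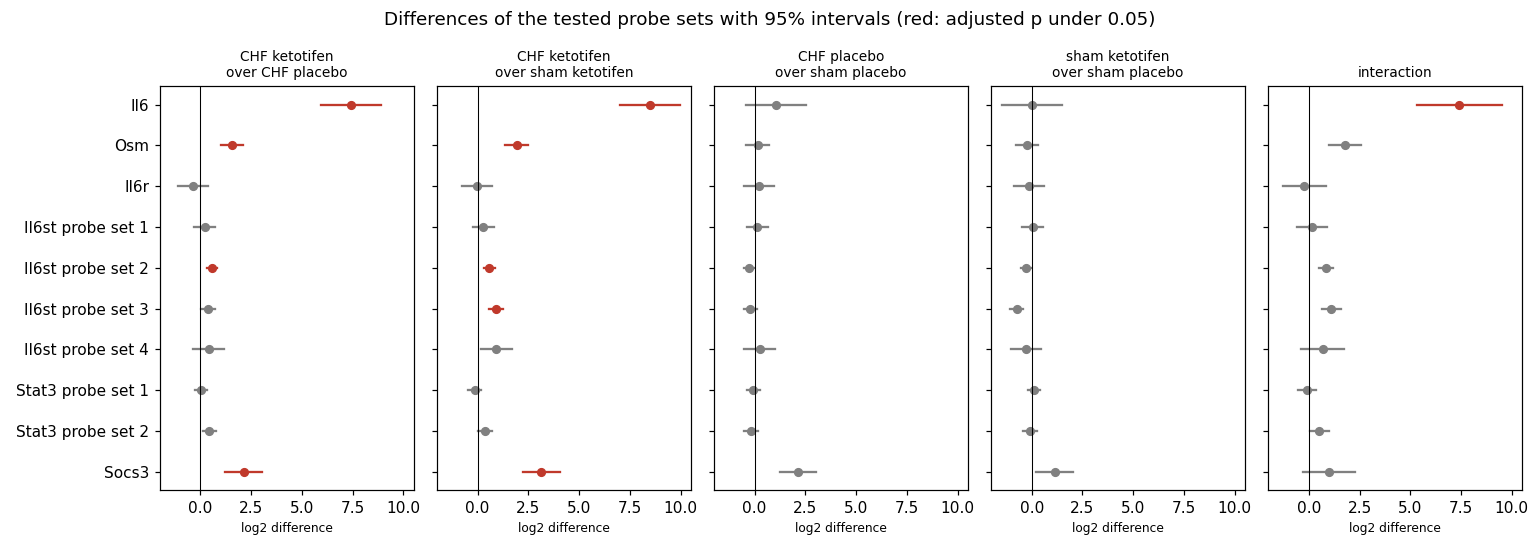
Log2 differences of the 10 tested probe sets in the 5 comparisons, with points for the fitted difference and lines for the 95% interval. Red marks an adjusted p under 0.05. Il6 lies at 7.42, 8.48 and 7.41 in the first, second and last panels, and 0 probe sets are red in CHF placebo over sham placebo and in sham ketotifen over sham placebo.

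The genes whose values followed Il6 most closely over the 12 arrays were Adamts4, an aggrecan-degrading protease, Nr4a3, an immediate early nuclear receptor, Shcbp1, Tfpi2, a Kunitz-type protease inhibitor, and Melk, a kinase. Their Pearson correlations with Il6 were 0.996, 0.993, 0.993, 0.990 and 0.987. Each had its 3 highest values in the CHF ketotifen lungs and was higher in CHF placebo 1 than in CHF placebo 2 and 3. Melk was low throughout, at 4.85, 4.49 and 4.55 in the CHF ketotifen lungs, against 3.69, 2.42 and 2.36 in the CHF placebo lungs. Adamts4 read 7.77, 7.25 and 7.41 in the CHF ketotifen lungs, against 4.18, 2.85 and 2.77 in the CHF placebo lungs. Nr4a3 read 7.76, 7.42 and 7.65 in the CHF ketotifen lungs, against 4.33, 2.90 and 2.03 in the CHF placebo lungs. All of these correlations share the 12 arrays, 3 of which were high. The genes were picked for their correlation with Il6, so the choice fixed their shared pattern. They reached a log2 value of 4 only in the CHF ketotifen lungs and, except for Melk, in CHF placebo 1. Each thus met the filter through the group where it was high.

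Socs3 was followed most closely by Ncoa7 (Pearson r = 0.947), Timp1 (0.941), Olr1 (0.937), Gnl3 (0.936) and Cd36 (0.933), again over 12 arrays. Olr1 encodes a scavenger receptor for oxidized lipoprotein and Cd36 another scavenger receptor. Timp1, a metalloproteinase inhibitor, read 11.80, 11.42 and 11.83 in the CHF ketotifen lungs, against 10.22, 9.45 and 10.32 in the CHF placebo lungs. Its sham ketotifen lungs read 8.59, 9.01 and 8.95, and its sham placebo lungs 9.21, 8.51 and 8.22. Timp1 was intermediate in the CHF placebo lungs, as Socs3 was, whereas the genes most like Il6 lay near background in sham lungs.

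**Figure D3:**
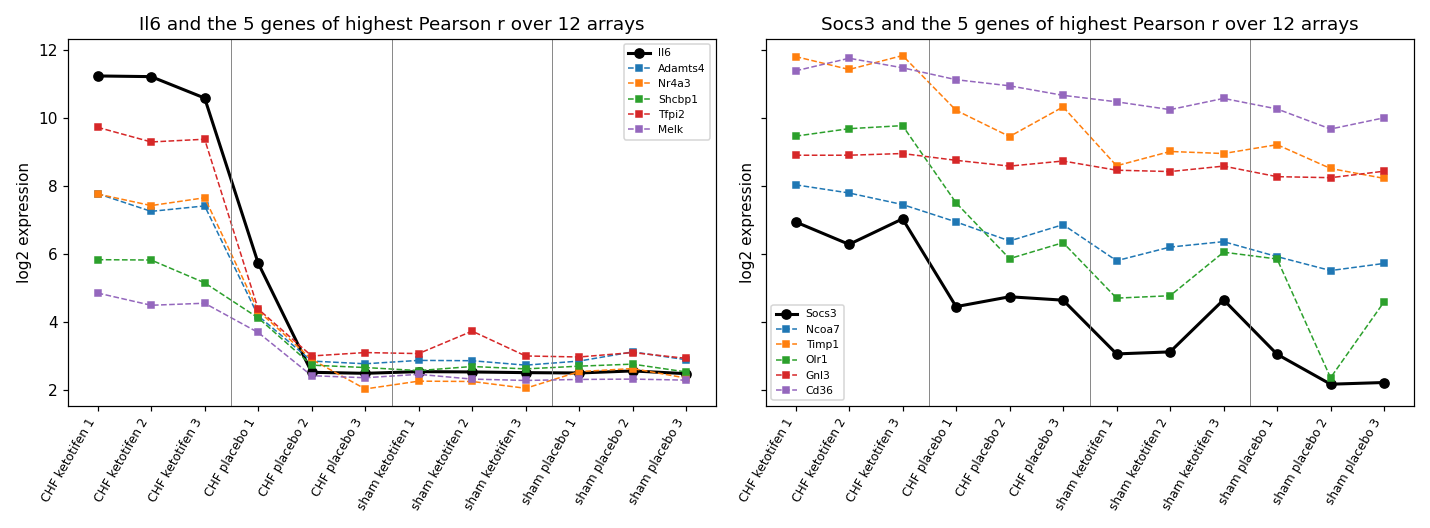
Log2 expression on each of the 12 arrays for Il6 (left) and Socs3 (right), in black, and for the 5 genes of highest Pearson correlation with each, in colour. Vertical lines separate the 4 groups. The genes like Il6 had their highest values in the 3 CHF ketotifen lungs and the next highest in CHF placebo 1, and the genes like Socs3 were on average intermediate in the CHF placebo lungs.

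Of 90 other genes of the pathway on 6 lists, 82 were on the array and 65 were tested, each by its brightest kept probe set. In CHF ketotifen over CHF placebo lungs 10 rose, 0 fell and 55 did not pass, with a median difference of 0.27 against -0.04 for all kept probe sets, of which 0.822% were called higher. In CHF ketotifen over sham ketotifen lungs 19 rose, 2 fell and 44 did not pass, with a median of 0.30 against -0.03 and with 6.36% of all called higher and 6.61% lower. In CHF placebo over sham placebo lungs and in sham ketotifen over sham placebo lungs 0 of 65 were called by limma. The interaction was called for 5 genes, all higher, namely Bcl3, Myc, Zc3h12a, Arid5a and Nfkbiz, against 0.254% of all called higher. Among the 65 genes, Arid5a and Tnf met the filter only on the 3 CHF ketotifen arrays, so each was tested through the group where it was high, and they are part of these counts.

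Among the kinases, adaptors and other STATs, 0 of 11 were called in CHF ketotifen over CHF placebo lungs. Over sham ketotifen lungs Shc1, an adaptor to the Ras pathway, rose by 1.05 ± 0.26 (limma adjusted p = 0.0259), and 10 did not pass, where 6.36% of all kept probe sets were called higher. Jak2, a Janus kinase that binds gp130, differed by 0.74 ± 0.29 in CHF ketotifen over CHF placebo lungs, with a limma adjusted p of 0.231. Among the other inhibitors of the pathway 1 of 10 was called over CHF placebo lungs, against 0.822% of all called higher. This was Cish, a relative of Socs3, which read 7.63, 9.06 and 7.75 in the CHF ketotifen lungs, against 6.70, 6.30 and 6.67 in the CHF placebo lungs. Its rise was 1.59 ± 0.32 (limma adjusted p = 0.0419), and its other probe set rose by 1.74. Over sham ketotifen lungs 3 of 10 rose, Cish, Socs6 and Dusp2, a nuclear phosphatase, against 6.36% of all. Socs1 and Socs2 did not pass the filter on low values.

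Of the STAT3 target and acute phase genes 3 of 22 rose in CHF ketotifen over CHF placebo lungs, where 0.822% of all kept probe sets were called higher. Bcl3, a nuclear IkappaB protein, read 6.96, 7.42 and 7.68 in the CHF ketotifen lungs, against 5.06, 5.07 and 4.77 in the CHF placebo lungs. All CHF ketotifen lungs were above all others, and its rise was 2.39 ± 0.21 (limma adjusted p = 0.000266). Myc, a growth-promoting transcription factor, rose by 1.86 ± 0.24 (limma adjusted p = 0.00301), and Timp1 by 1.69 ± 0.28 (0.0157). Junb differed by 1.26 ± 0.31 with a limma adjusted p of 0.0770. Over sham ketotifen lungs 7 of 22 rose, these 3 and Junb, Cebpb, Fgg and Lcn2, and 1 fell, Vegfa, against 6.36% of all called higher and 6.61% lower.

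Not all of that list moved together. Lcn2, an acute phase lipocalin, read 13.85, 13.82 and 13.23 in the CHF ketotifen lungs, against 14.36, 12.67 and 11.06 in the CHF placebo lungs, so that CHF placebo 1 was the highest lung of all. Fgg, the fibrinogen gamma chain, read 11.70, 12.01 and 11.62 in the CHF ketotifen lungs, against 11.73, 10.68 and 9.81 in the CHF placebo lungs. The liver-type acute phase genes Fga, Fgb, A2m and Hamp did not pass the filter, nor did Pim1. Vegfa, the endothelial growth factor, fell by 1.54 ± 0.30 in CHF ketotifen over sham ketotifen lungs (limma adjusted p = 0.0121), and its other probe set differed by -1.55 with a limma adjusted p of 0.106.

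The regulators of Il6 transcription and mRNA held the most calls, 6 of 17 in CHF ketotifen over CHF placebo lungs, all higher, against 0.822% of all kept probe sets. Arid5a, 1 of these 6, passed the filter only through the CHF ketotifen arrays. Zc3h12a encodes Regnase-1, which degrades Il6 mRNA, and Arid5a encodes a protein that protects that mRNA. Zc3h12a read 6.43, 5.92 and 6.30 in the CHF ketotifen lungs, against 4.59, 4.28 and 4.09 in the CHF placebo lungs, a rise of 1.89 ± 0.21 (limma adjusted p = 0.00118). Arid5a read 4.71, 4.59 and 5.44 in the CHF ketotifen lungs, against 3.48, 3.22 and 3.03 in the CHF placebo lungs, a rise of 1.67 ± 0.24 (limma adjusted p = 0.00676). Arid5a lay between 2.63 and 3.58 in the other groups, near background, so the size of its difference is uncertain.

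Nfkbiz, which encodes IkappaB-zeta, a nuclear cofactor of Il6 transcription, rose by 1.87 ± 0.17 (limma adjusted p = 0.000266). Its CHF ketotifen lungs read 9.88, 9.88 and 9.85, against 7.80, 7.98 and 8.23 in the CHF placebo lungs. Tnfaip3, which encodes the NF-kappaB inhibitor A20, rose by 2.59 ± 0.27 (limma adjusted p = 0.000951). Crem, a cyclic AMP response element modulator, rose by 1.64 ± 0.25 (limma adjusted p = 0.0108) on its brightest probe set. Of its 5 kept probe sets 3 were called, and the other 2 differed by 1.00 and 2.25 (limma adjusted p = 0.244 and 0.0598). The cytokine gene Il1b read 10.17, 10.99 and 9.75 in the CHF ketotifen lungs, against 6.50, 7.14 and 7.87 in the CHF placebo lungs, a rise of 3.13 ± 0.41 (limma adjusted p = 0.00366). In each of these 4 genes the CHF ketotifen lungs lay above the CHF placebo lungs.

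Tnf varied widely among the CHF ketotifen lungs, at 5.64, 9.25 and 4.13, against 2.75, 2.67 and 2.67 in the CHF placebo lungs. Every CHF ketotifen lung was above the other groups, which were at background, but the difference of 3.65 ± 0.93 over CHF placebo lungs had a limma adjusted p of 0.0873. Over sham ketotifen lungs 8 of 17 regulators rose, the same 6 genes with Nfkb1 and Tnf, and Creb1 fell, against 6.36% of all called higher and 6.61% lower. Tnf and Arid5a are the 2 of these 8 that passed the filter only through the CHF ketotifen arrays. Creb1, the cyclic AMP response element binding factor, fell by 1.37 ± 0.31 on its brightest probe set (limma adjusted p = 0.0195) and differed by 0.07 on the other. Il6, with a cyclic AMP response element and a kappaB motif in the window printed above, was not tested for a relation to these genes.

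**Figure D4:**
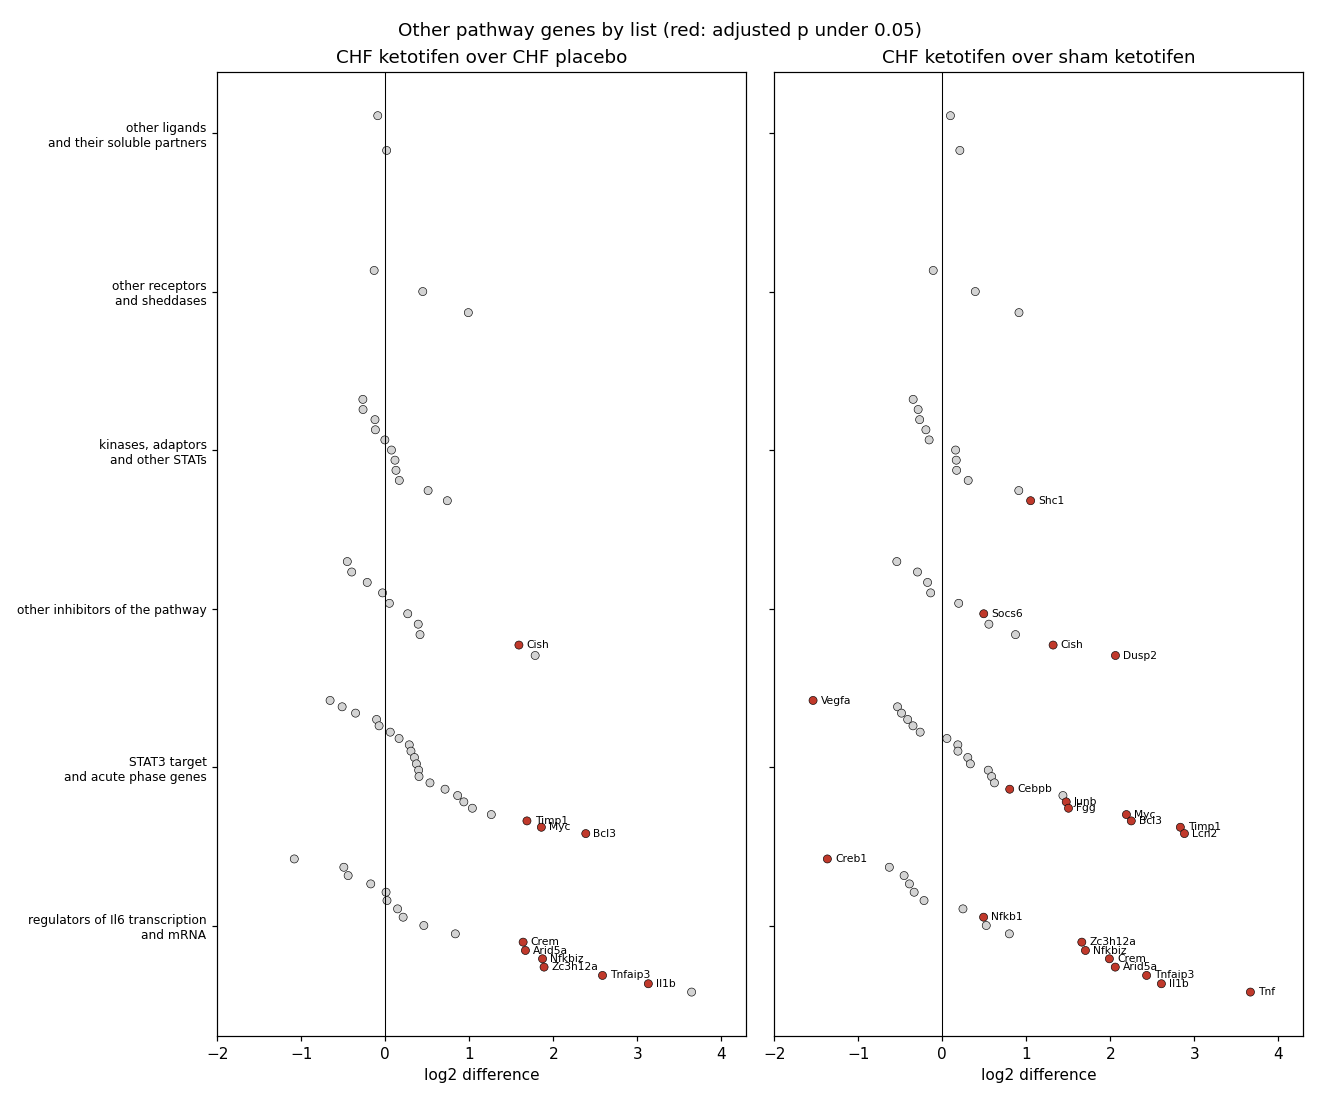
Log2 differences of 65 other pathway genes in CHF ketotifen over CHF placebo lungs (left) and over sham ketotifen lungs (right), grouped by list on the vertical axis. Each point is 1 gene, red and named where the adjusted p was under 0.05, and points are spread vertically within a list for legibility. Red points number 10 on the left and 21 on the right, with Vegfa and Creb1 the 2 that were lower.

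Markers of several cell types differed between some of the groups. The summed signal of 10 macrophage genes was 14.17 to 14.68 in CHF ketotifen lungs and 13.21 to 14.53 in CHF placebo lungs, with 0 of 10 called between them. In sham ketotifen lungs it was 12.26 to 12.85, and 8 of 10 were called higher in CHF ketotifen over sham ketotifen lungs, where 6.36% of all kept probe sets were called higher. Trem2, 1 of these 8, would not have met the filter without the CHF ketotifen arrays. The mean log2 value of the macrophage genes did not overlap between the CHF groups, at 9.58 to 9.74 with ketotifen and 8.15 to 9.47 with placebo. The summed neutrophil signal was 11.20 to 12.62 in CHF ketotifen lungs, 8.54 to 11.41 in CHF placebo lungs and 10.54 to 11.56 in sham ketotifen lungs. The mean log2 value of these genes did not overlap between the CHF groups, at 5.22 to 6.29 with ketotifen and 3.96 to 5.17 with placebo. Between the CHF groups 1 of 4 tested genes was called higher, against 0.822% of all kept probe sets. This was Il1r2, which met the filter only on the CHF ketotifen arrays. It read 4.62 to 5.66 in CHF ketotifen lungs and 2.65 to 2.66 in CHF placebo lungs. Il1r2 is part of the mean above, so the lack of overlap of that mean draws on it. The other tested genes, S100a8, S100a9 and Csf3r, each overlapped between the CHF groups. Among the genes not tested, Mmp8 and Camp did not overlap and Cxcr2 did. Of the 7 neutrophil genes on the array 4 averaged below 4, among them Cxcr2 and Camp.

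Summed endothelial signal was 12.78 to 13.24 in CHF ketotifen lungs, 13.32 to 14.16 in CHF placebo lungs and 14.20 to 14.54 in sham ketotifen lungs. The mean log2 value of these genes overlapped between the CHF groups, at 10.18 to 10.62 with ketotifen and 10.43 to 11.32 with placebo. Of 5 tested endothelial genes 1 was called lower in CHF ketotifen over CHF placebo lungs and 4 over sham ketotifen lungs, against 0.393% and 6.61% of all kept probe sets.

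Genes of mast cells, the cells that ketotifen stabilizes, summed to 9.46 to 10.85 in CHF ketotifen lungs and 9.78 to 11.11 in CHF placebo lungs, with 0 of 9 called between them by limma. Their sum was 8.88 to 9.41 in sham ketotifen lungs and 8.33 to 8.57 in sham placebo lungs. Over sham ketotifen lungs 3 of 9 were called higher in CHF ketotifen lungs, against 6.36% of all. Over sham placebo lungs 5 of 9 were called higher in CHF placebo lungs, against 0.145% of all, in the comparison where Socs3 differed by 2.13. These 5 were Cpa3, Fcer1a, Cma1, Mcpt1l1 and Mcpt10, which encode mast cell proteases and a chain of the IgE receptor, and the median of the 9 was 3.46. The others were not called, with differences of 2.34 for Tpsb2, 2.15 for Tpsab1, 0.01 for Kit and -0.73 for Hdc. In CHF ketotifen over sham ketotifen lungs Kit and Hdc differed by -0.59 and -0.61 and were not called.

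Of the other cell type lists, the mesothelial, club, ciliated, erythroid and platelet lists had calls in some comparisons. The alveolar type 1, alveolar type 2, fibroblast, smooth muscle, cardiomyocyte, T cell and B cell lists had 0 calls in every comparison. Wt1, a mesothelial transcription factor, read 7.23, 6.73 and 7.44 in the CHF ketotifen lungs, against 4.13, 4.48 and 5.05 in the CHF placebo lungs. It was called higher over CHF placebo lungs (2.58 ± 0.46, limma adjusted p = 0.0248) and over sham ketotifen lungs (2.55 ± 0.46, limma adjusted p = 0.00926), while the other 2 mesothelial genes were not called. Over all kept probe sets 0.822% and 6.36% were called higher in these comparisons. Of 3 club cell genes 2, Cyp2f4 and Cyp2a3, were called lower in CHF ketotifen over sham ketotifen lungs, with a list median of -3.99. Of 5 ciliated cell genes 1, Tppp3, was called lower there, where 6.61% of all kept probe sets were called lower. Hbb, a haemoglobin chain and 1 of 2 tested erythroid genes, was called higher in CHF ketotifen over sham ketotifen lungs (2.59) and in CHF placebo over sham placebo lungs (5.34). The shares of all kept probe sets called higher there were 6.36% and 0.145%. Pf4, the only platelet gene tested, was called higher in CHF ketotifen over sham ketotifen lungs by 1.47, against 6.36% of all called higher.

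Of 14 immediate early genes 5 were higher in CHF ketotifen over CHF placebo lungs and 8 were higher and 1 lower over sham ketotifen lungs, against 0.822% of all higher in the first comparison and 6.36% higher and 6.61% lower in the second. Fosb and Nr4a3, among both counts, met the filter only through the CHF ketotifen group. The summed signal of the immediate early genes overlapped, at 14.49 to 14.77 in CHF ketotifen lungs, 14.47 to 14.94 in CHF placebo lungs and 14.48 to 15.19 in sham ketotifen lungs. Their mean log2 value was higher in CHF ketotifen lungs without overlap, at 9.83 to 10.14, 8.42 to 8.83 and 8.25 to 8.96 in the same order. The part of any of these cells or genes in the interleukin 6 family values was not tested.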

How the data were processed

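Total RNA of 12 whole lungs was hybridized to Affymetrix rat genome arrays. The deposited values are log2 expression per probe set, made by the authors in R 2.5.0 by GCRMA, per the submitters' processing notes, with settings not given in the sources used here. Scanner files were not used here. Groups came from the source names in the labels.

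The test was that of limma 3.58.1 (R 4.3.3), in 1 fit of 12 arrays with 4 group means and 8 residual degrees of freedom before moderation, with eBayes and an intensity trend, two-sided. The 57 control probe sets and probe sets with a log2 value of at least 4 in fewer than 3 arrays were left out. Calls are at an adjusted p under 0.05 (Benjamini-Hochberg over all 16536 kept). Comparisons share groups. Errors are SE of the fit or SD of 3 arrays. The fit was tested on simulated data.

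The members, the lists and the alternatives were chosen with earlier results of these data known. The text names all members, up to 5 called and 2 uncalled genes per list and comparison, and the 5 genes most like Il6 and Socs3, with some left out. Genes of the lists given as not passing the filter and the other probe sets of named genes were added after values were seen, as were genes of lists beyond 5 called and the marker genes named. Symbols come from the platform annotation. Upstream sequence comes from RefSeq (GRCr8), matched by symbol. Arrays of the same replicate number were not treated as pairs in the main fit. Across groups, 18 pairs of the same number had correlations of deviations from -0.35 to 0.26 (median 0.051), and 5 were over 0.1. The 36 pairs of unlike number had correlations from -0.39 to 0.32 (median -0.032), and 9 were over 0.1.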

Additional observations from a re-analysis of the deposited data

Results flagged for a closer look

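The measured drug difference in Il6 was not the same in banded and sham rats. All sham lungs read at background, where the arrays do not resolve differences. The test of that difference itself gave an interaction of 7.41 log2 units with a limma adjusted p of 0.00763. Il6 was tested only through the CHF ketotifen group, where it was high, since it would not have met the filter without those arrays. Il6 read 10.58 to 11.23 in CHF ketotifen lungs and 2.49 to 5.73 in CHF placebo lungs, against 2.51 to 2.54 in sham ketotifen lungs and 2.48 to 2.56 in sham placebo lungs. It was called in 21 of 22 alternatives, the exception being the fit without sham placebo 2 and 3 and sham ketotifen 2.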

How the results depend on the processing

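With 3 arrays per group, 1 array ends several calls. Of the called differences, those of Il6 in CHF ketotifen over CHF placebo and over sham ketotifen lungs, and those of Osm, Socs3 and the third Il6st probe set over sham ketotifen lungs, were called in 23 of 23 alternatives. The number of the 10 family probe sets called in CHF ketotifen over CHF placebo lungs was 4, and 2 with no filter, with only the 2 groups compared, with CHF ketotifen 1 and 3 averaged, without sham placebo 2 and 3 and sham ketotifen 2, and with the replicate number as a block. Leaving out 1 array gave 1 to 4 in that comparison, 5 to 6 over sham ketotifen lungs, 0 to 1 in CHF placebo over sham placebo lungs and 1 to 2 in the interaction. In the fit without 3 sham arrays the lone sham placebo array was assumed to vary like the other groups. The interaction count was 2 after quantile normalization and 0 without the 3 sham arrays. For the other pathway genes, leaving out 1 array gave 7 to 13, 11 to 24, 0 to 8, 0 to 6 and 2 to 5 calls in CHF ketotifen over CHF placebo, CHF ketotifen over sham ketotifen, CHF placebo over sham placebo, sham ketotifen over sham placebo and the interaction. The first was 5 with only the 2 groups compared, the second was 12 with no filter, and the interaction was 3 with no filter, a floor of 5 or the averaged pair, 2 with the replicate block and 0 without the 3 sham arrays. Over all kept probe sets, 201 were called in CHF ketotifen over CHF placebo lungs, 145 with the replicate block, 152 with no filter, 60 with only the 2 groups and 88 with the averaged pair, and leaving out 1 array gave 72 (CHF placebo 2) to 1219 (CHF placebo 1). The replicate block ended the calls of Socs3 (limma adjusted p = 0.0505) and the second Il6st probe set (0.0709) in that comparison, and no other call of a family probe set.

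Array weights by the default method stopped before convergence, with 3169 to 8291 probe sets called in the 5 comparisons and 3 to 6 of the family. Weights estimated gene by gene, chosen after seeing this, called 702 to 4139 of all. They called 6, 6, 1, 2 and 4 family probe sets and 34, 31, 14, 3 and 17 other pathway genes in the same order of comparisons. The cause was not tested.

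Signs changed only for differences that were not called. With gene-by-gene weights these were the first Stat3 probe set in CHF ketotifen over CHF placebo (-0.0051), Il6r over sham ketotifen (0.28) and in the interaction (0.21), Osm in CHF placebo over sham placebo (-0.18) and the first Il6st probe set in sham ketotifen over sham placebo (-0.22). After quantile normalization they were Il6r over sham ketotifen (0.0059), and Il6 (-0.017) and the first Il6st probe set (-0.0028) in sham ketotifen over sham placebo. Without the 3 sham arrays, CHF placebo over sham placebo gave -0.34 for Il6r, -0.067, -0.36, 0.081 and 0.0072 for the Il6st probe sets 1 and 4 and the Stat3 probe sets 1 and 2, sham ketotifen over sham placebo gave -0.33 for the first Il6st and 0.089 for the second Stat3 probe set, and the Il6r interaction was 0.33. Leaving out 1 array gave these ranges. For Il6 they were -0.0044 to 1.61 in CHF placebo over sham placebo and -0.0046 to 0.035 in sham ketotifen over sham placebo. For Osm the range was -0.037 to 0.34 in CHF placebo over sham placebo. For Il6r they were -0.58 to 0.018, -0.26 to 0.34, -0.16 to 0.46, -0.48 to 0.13 and -0.48 to 0.15 in the 5 comparisons in the order above. For the first Il6st probe set they were -0.0011 to 0.39 in CHF ketotifen over CHF placebo, -0.11 to 0.34 in CHF placebo over sham placebo, -0.19 to 0.18 in sham ketotifen over sham placebo and -0.048 to 0.40 in the interaction. Il6st probe set 4 gave -0.17 to 0.54 in CHF placebo over sham placebo and -0.69 to 0.015 in sham ketotifen over sham placebo. The first Stat3 probe set gave -0.024 to 0.082, -0.13 to 0.025, -0.038 to 0.20 and -0.18 to 0.060 in CHF ketotifen over CHF placebo, CHF placebo over sham placebo, sham ketotifen over sham placebo and the interaction. The interaction could not be had from only 2 groups. Values near 2 to 4 lie at background, where the arrays do not resolve differences.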
